A study of Mus musculus with 18 samples.

Results

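Follicles cultured with anti-Müllerian hormone (AMH) at 50 ng/mL for 24 h were compared with follicles given the same dose for 12 h. They make up 6 of the 18 arrays of the study, 3 at each time, chosen by the dose and time in the sample titles. The follicles were preantral to small antral and came from female C57BL/6Ntac mice (C57BL/6Tac in the design text) of 6 to 8 weeks. Follicles of 7 mice were pooled for each experiment and divided over single drop cultures with vehicle, 50 or 200 ng/mL recombinant AMH, in medium that also held 80 IU/L FSH and 10 IU/L LH at every dose and time. The 24 h and the 12 h cultures came from different pools, which the submitters describe as comparable only within an experiment, so time and pool cannot be told apart in this comparison. One label field of the 12 h AMH 50 ng/mL samples names 24 h, against 12 h in their titles and source names, which were used.

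AMH is a member of the TGF-β family that granulosa cells of growing follicles secrete. It binds the receptor AMHR2 and signals through type I BMP receptors and SMAD1, SMAD5 and SMAD9, and it is known for holding back the recruitment and the FSH sensitivity of follicles. FSH drives granulosa cell division and differentiation, whereas LH acts on theca cells and, in mature follicles, starts the ovulatory programme of EGF-like ligands and cumulus matrix genes.

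The arrays of the comparison were checked first. Over all probe sets, the 3 arrays of 24 h correlated with each other at 0.983 to 0.989 (Pearson's r of log2 signals) and the 12 h arrays of replicates 1 and 2 at 0.981. Correlations across times were 0.964 to 0.976. The 12 h array of replicate 3 correlated with them at only 0.610 to 0.624 and carried bacterial hybridisation controls at a mean signal of 28532, against 1441 to 3520 on the other 17 arrays. All values here therefore compare the 3 arrays of 24 h with replicates 1 and 2 of 12 h. With all 6 arrays, limma called 0 probe sets after adjustment and 1325 at an unadjusted p under 0.05.

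Values are MAS5 signals, the array software's intensity per probe set, scaled so that the trimmed mean of each array was 150. A log2 difference is the mean of log2(signal + 16) at 24 h minus that at 12 h, given with its standard error (SE); on this scale the change of genes with low signal is understated. Genes were called at a Benjamini-Hochberg adjusted p under 0.05 in limma over 22518 probe sets. Of these, 1776 (7.89%) were called, 1107 (4.92%) higher and 669 (2.97%) lower at 24 h, and 5113 had an unadjusted p under 0.05. Taking the brightest probe set of each gene, 1012 of 11221 genes (9.02%) were called, 632 (5.63%) higher and 380 (3.39%) lower. In all 1012 the 24 h arrays did not overlap the 12 h arrays, as in 21% of all tested genes in the higher and 20.4% in the lower direction. The log2 difference passed 1 in 404 of the higher genes and -1 in 228 of the lower ones. Leaving out 24 h replicate 1 left 600 probe sets higher and 298 lower, leaving out 24 h replicate 3 left 628 and 363, and leaving out 12 h replicate 2 left 750 and 371. Of the 1012 called genes, 331 were called with any 1 of the 5 arrays left out.

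The largest rise was in *Plin5*, which codes for the lipid droplet protein perilipin 5. Its signals were 445, 476 and 440.4 at 24 h, against 21.2 and 14.7 at 12 h. The log2 difference of *Plin5* was 3.80 ± 0.21 (SE, limma, adjusted p = 9.2e-05). *Plin4*, another perilipin, rose as well, with a log2 difference of 1.60 ± 0.23 (adjusted p = 0.0035), and so did *Abca1*, a cholesterol exporter, with 1.55 ± 0.31 (adjusted p = 0.015). *Fabp4*, a fatty acid carrier, fell, with a log2 difference of -2.47 ± 0.48 (adjusted p = 0.013). Of 22 tested genes of lipid droplets and lipid uptake, 4 rose and 2 fell, against 5.63% of all tested genes that rose and 3.39% that fell, and the median log2 difference of the list was 0.06.

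The 15 largest rises also held *Gsg1l* and *Oxtr*. *Gsg1l*, an auxiliary subunit of AMPA receptors, had signals of 285, 432 and 432 at 24 h, against 21.3 and 14.1 at 12 h. *Oxtr*, the oxytocin receptor, had signals of 88.2, 152 and 164 at 24 h, against 14.4 and 4.27 at 12 h. On both genes all 24 h arrays lay above both 12 h arrays, as the rule that picked them required. The log2 difference of *Oxtr* was 2.56 ± 0.31 (SE, limma, adjusted p = 0.0015). The potassium channel gene *Kcnk3* rose with a log2 difference of 2.79 ± 0.45 (adjusted p = 0.0057), and *Slc26a7*, an anion transporter, with 2.69 ± 0.56 (adjusted p = 0.018). *Timp4*, an inhibitor of metalloproteases, rose with a log2 difference of 2.78 ± 0.27 (adjusted p = 0.00054). The remaining genes of this group were *Mmd2*, *Islr*, *Jakmip3*, *Dpysl4*, *Prrt4*, *Mmel1*, *Pdlim4*, *Ypel1* and *N4bp2l1*, with log2 differences of 2.75 (*N4bp2l1*) to 3.31 (*Mmd2*).

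The largest fall was in *Nts*, which codes for neurotensin, a peptide hormone of gut and brain. Its signals were 51.2, 108 and 58.8 at 24 h, against 1504 and 824 at 12 h, and its log2 difference was -3.73 ± 0.31 (adjusted p = 0.00033). *Nmu*, which codes for neuromedin U, had signals of 2.9, 5.16 and 5.14 at 24 h, against 331 and 119 at 12 h. All 3 arrays of 24 h were below the pseudocount for *Nmu*, so that the log2 difference of -3.41 ± 0.35 (adjusted p = 0.00072) understates its fall. *Crhbp*, the binding protein of corticotropin-releasing hormone, fell with a log2 difference of -2.74 ± 0.27 (adjusted p = 0.00055). *Csn3*, a casein gene, had a log2 difference of -3.40 ± 0.28 (adjusted p = 0.00033). The 15 largest falls also held *Ramp3*, a partner of calcitonin-family receptors, with a log2 difference of -2.97 ± 0.41 (adjusted p = 0.0029), the guidance factor *Sema3e* with -2.74 ± 0.40 (adjusted p = 0.0038) the chemokine *Cxcl1* with -2.42 ± 0.34 (adjusted p = 0.0031) and *Aard* with -2.51 ± 0.31 (adjusted p = 0.0018). Of the 9 tested genes of the neuropeptide and secretory granule list 2 fell and 0 rose, against 3.39% and 5.63% of all tested genes. Those that fell were *Nts* and the galanin gene *Gal*, the second with -1.87 ± 0.36 (limma, adjusted p = 0.013). In that list 6 members had a value above 0 and the median was 0.30; *Nppc*, which codes for C-type natriuretic peptide, had 1.17 ± 0.35 (adjusted p = 0.069) and was not called.

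**Figure D1:**
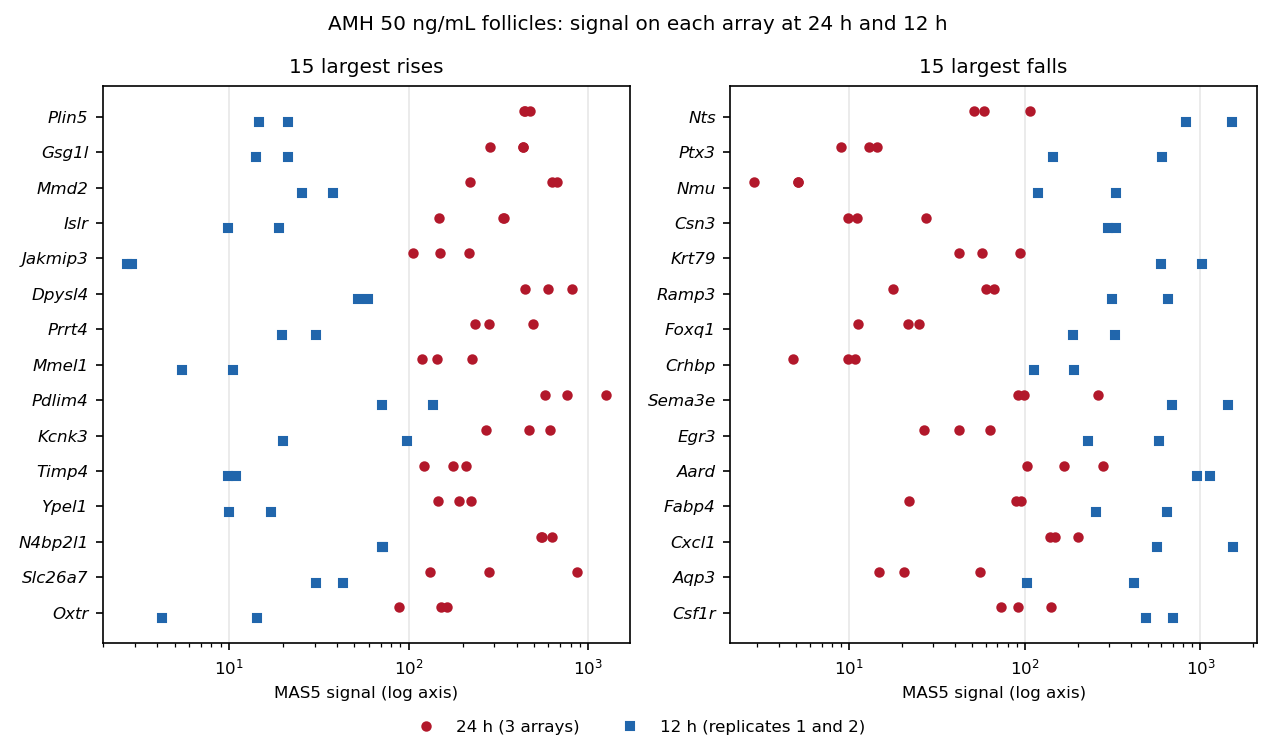
MAS5 signal (log axis) of the 15 genes with the largest rises and the 15 with the largest falls among called genes, with circles for the 3 arrays of 24 h above squares for replicates 1 and 2 of 12 h. The 30 genes were picked from called genes whose 24 h and 12 h arrays do not overlap. *Plin5* lies at 440 to 476 at 24 h and at 14.7 to 21.2 at 12 h.

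Genes of mitosis were lower at 24 h as a group. Of 37 tested genes for spindle, kinetochore and mitotic kinase proteins, 31 fell and none rose, against 3.39% of all tested genes that fell. The median log2 difference of the list was -1.47, against -0.01 over all tested genes, and all 37 members had a value below 0. *Cdc20*, the activator of the anaphase-promoting complex, had signals of 143, 209 and 162 at 24 h, against 524 and 942 at 12 h. *Hmmr*, a spindle-associated protein, had signals of 45.6, 44.8 and 32.1 at 24 h, against 166 and 286 at 12 h. In both genes the 3 arrays of 24 h lay below both 12 h arrays. The log2 difference of *Cdc20* was -1.96 ± 0.25 (SE, limma, adjusted p = 0.0021). The log2 difference of *Hmmr* was -2.05 ± 0.28 (SE, limma, adjusted p = 0.0027). The midzone protein *Prc1* had a log2 difference of -1.79 ± 0.23 (adjusted p = 0.002), the spindle assembly factor *Tpx2* -1.70 ± 0.24 (adjusted p = 0.0029), the proliferation antigen gene *Mki67* -1.59 ± 0.26 (adjusted p = 0.0058), and the mitotic kinase gene *Cdk1* -1.14 ± 0.20 (adjusted p = 0.0081). The 6 members that were not called were *Cenpf*, *Ttk*, *Nek2*, *Ncapd2*, *Bub1b* and *Foxm1*. The summed signal of the list was 4274, 4617 and 3143 on the 24 h arrays, against 9473 and 14121 on the 12 h arrays. Without 24 h replicate 1 the count of lower members was 17, without 12 h replicate 2 it was 15, and 14 of the 31 were called with any 1 array left out.

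**Figure D2:**
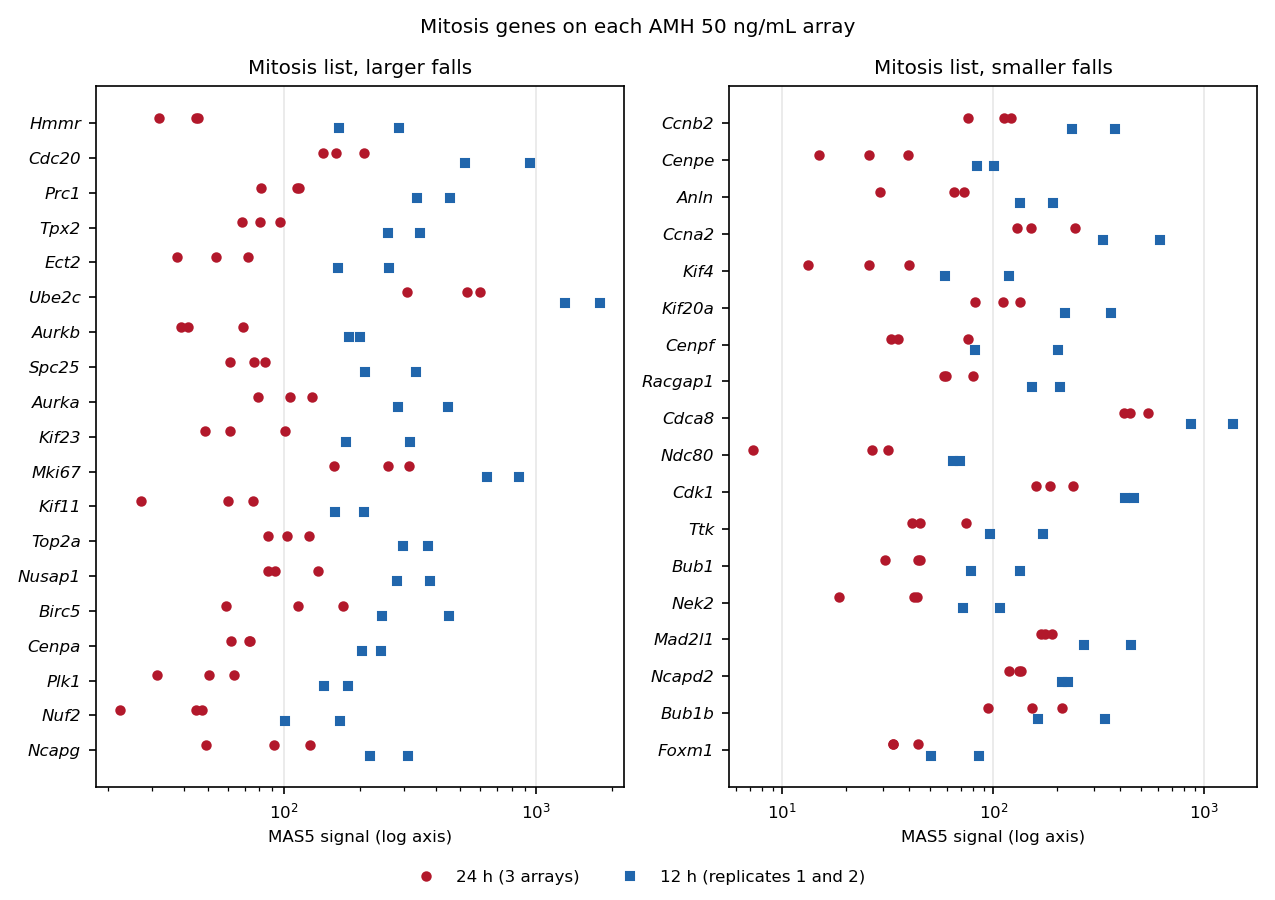
MAS5 signal (log axis) of the 37 tested mitosis genes, ordered by log2 difference, with circles for the 3 arrays of 24 h above squares for replicates 1 and 2 of 12 h. Most genes have all circles left of both squares; *Bub1b* overlaps.

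Promoters of cell cycle genes often hold CCAAT boxes and the cell cycle homology element TTTGAA, where the MuvB complex binds. The RefSeq windows (GRCm38.p6, 250 bases before to 50 after the start site) of 3 of the mitosis genes that fell are shown, with both motifs in capitals on either strand, because these motifs were frequent in that set.
Cdc20, chr4:118437294-118437593, minus strand: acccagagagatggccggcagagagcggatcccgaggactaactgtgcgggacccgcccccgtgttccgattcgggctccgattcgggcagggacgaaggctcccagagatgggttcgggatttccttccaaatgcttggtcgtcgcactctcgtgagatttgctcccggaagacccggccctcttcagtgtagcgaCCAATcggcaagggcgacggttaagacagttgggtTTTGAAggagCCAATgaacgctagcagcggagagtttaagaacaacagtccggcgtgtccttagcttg
Ccnb2, chr9:70421505-70421804, minus strand: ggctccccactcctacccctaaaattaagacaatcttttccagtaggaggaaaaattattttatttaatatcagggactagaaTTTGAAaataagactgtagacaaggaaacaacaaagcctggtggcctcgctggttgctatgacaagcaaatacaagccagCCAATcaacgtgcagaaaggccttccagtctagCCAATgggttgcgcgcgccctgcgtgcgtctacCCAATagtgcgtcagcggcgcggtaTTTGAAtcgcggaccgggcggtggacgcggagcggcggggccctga
Prc1, chr7:80294201-80294500, plus strand: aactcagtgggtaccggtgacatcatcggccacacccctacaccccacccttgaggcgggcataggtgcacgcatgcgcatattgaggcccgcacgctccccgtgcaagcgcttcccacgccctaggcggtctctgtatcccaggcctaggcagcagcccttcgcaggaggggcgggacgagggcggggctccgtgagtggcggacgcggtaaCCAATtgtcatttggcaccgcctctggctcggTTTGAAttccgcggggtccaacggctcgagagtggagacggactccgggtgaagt
Of the 31 mitosis genes that fell, 27 had a window. Of these, 21 held CCAAT (77.8%), against 43.2% of the 9121 tested genes with a window. TTTGAA was in 21 (77.8%), against 13.8% of those tested genes. Both motifs were in 19 (70.4%), against 5.6% of the tested genes with a window and 8% of all 27025 genes with one. Of the 6 mitosis genes that were not called, 5 had a window and 4 of these held both. Among genes that fell outside the list, 24 of 270 held both motifs (8.9%).

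The search was wider than these 2 motifs. After the calls were seen, 6 motifs were looked for on both strands in 8 sets of list genes that had moved, and the matches are given as descriptions with no test. Besides CCAAT and TTTGAA they were the CArG box, the cyclic AMP response element TGACGTCA, the NR5A element AAGGTCA and the AP-1 element TGANTCA. Counts are of genes that have a window. The CArG box was in 0 of the 6 immediate early genes that fell, and the AP-1 element in 0 of them as well. The NR5A element was in 0 of the 2 steroidogenesis genes that rose, too few to read a share from. TTTGAA was in 4 of 7 matrix genes that rose and in 4 of 5 theca genes that rose, against 13.8% of tested genes. The sets of matrix and theca genes that rose share *Col1a1*, *Col1a2* and *Dcn*, so their counts are not separate. In none of the 8 sets did the CArG box, TGACGTCA, the NR5A element or the AP-1 element match in more than 2 genes. A gene counted if any of its windows held the motif. No match says only that these letters are not in this window.

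Genes of DNA replication had smaller differences. Of 35 tested members 8 fell and 0 rose, against 3.39% and 5.63% of all tested genes, with a median log2 difference of -0.56. *Cdt1*, a licensing factor, fell with a log2 difference of -1.0 ± 0.16 (adjusted p = 0.0064), the helicase subunit gene *Mcm6* with -0.78 ± 0.16 (adjusted p = 0.016), the flap nuclease gene *Fen1* with -0.86 ± 0.18 (adjusted p = 0.018) and the polymerase gene *Pole* with -1.18 ± 0.25 (adjusted p = 0.021). The count depended on single arrays: it was 3 without 24 h replicate 1, 3 without replicate 2, 3 without replicate 3, and 1 without 12 h replicate 2. Of 17 tested cell cycle brakes and D cyclins 2 rose and 0 fell, against 5.63% and 3.39% of all tested genes. The median of that list was -0.26, and 11 members had a value below 0. *Gadd45a*, a stress-induced growth arrest gene, rose with a log2 difference of 1.68 ± 0.18 (adjusted p = 0.00093), and *Cdkn1b*, which codes for the CDK inhibitor p27, with 1.10 ± 0.25 (adjusted p = 0.023). *Cdkn1c*, another CDK inhibitor gene, had -0.99 ± 0.27 (limma, adjusted p = 0.052) and was not called. *Cdkn1a* had -0.50 ± 0.20 (adjusted p = 0.17) and *Ccnd2* -0.28 ± 0.17 (adjusted p = 0.38), and neither was called.

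Genes that LH induces in ovulatory follicles were lower at 24 h. Of 20 tested genes of the LH response and cumulus expansion, 8 fell and 1 rose, against 3.39% and 5.63% of all tested genes. Their median log2 difference was -0.65. *Ptx3*, a pentraxin that cross-links the cumulus matrix, had signals of 14.5, 9.06 and 12.9 at 24 h, against 607 and 145 at 12 h. *Tnfaip6*, which transfers heavy chains onto hyaluronan, had signals of 49.2, 64.7 and 39.8 at 24 h, against 482 and 191 at 12 h. *Ptgs2*, the inducible prostaglandin synthase, had signals of 130.1, 72.3 and 75.9 at 24 h, against 328 and 434 at 12 h. All 3 genes were lower on every 24 h array than on either 12 h array. The log2 differences were -3.50 ± 0.46 (adjusted p = 0.0022) for *Ptx3*, -2.27 ± 0.35 (adjusted p = 0.0049) for *Tnfaip6* and -1.89 ± 0.27 (adjusted p = 0.003) for *Ptgs2*. *Has2*, which makes hyaluronan, fell with -1.55 ± 0.23 (adjusted p = 0.0036), its receptor gene *Cd44* with -1.91 ± 0.23 (adjusted p = 0.0015) and the proteoglycan gene *Vcan* with -0.98 ± 0.16 (adjusted p = 0.006). The 8 genes that fell, which include *Btc* and *Ereg*, stayed called with any 1 array left out; the member that rose was *Star*.

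The EGF pathway showed the same direction in its ligands and its feedback genes. Of 21 tested genes 8 fell and 1 rose, against 3.39% and 5.63% of all tested genes, with a median log2 difference of -0.78. *Btc* and *Ereg*, which are among the 8, are also in the LH list above. The ligand gene *Btc* (betacellulin) had signals of 83.7, 94.5 and 60.7 at 24 h, against 593 and 371 at 12 h, and its log2 difference was -2.36 ± 0.26 (adjusted p = 0.0011). *Ereg* (epiregulin) fell with a log2 difference of -0.97 ± 0.17 (adjusted p = 0.0087). Among the feedback genes, *Phlda1* fell with -1.61 ± 0.21 (adjusted p = 0.0023), the phosphatase gene *Dusp4* with -1.26 ± 0.20 (adjusted p = 0.0052), *Spry2*, an inhibitor of receptor tyrosine kinase signalling, with -1.03 ± 0.16 (adjusted p = 0.0049) and *Errfi1*, an inhibitor of the EGF receptor, with -0.94 ± 0.16 (adjusted p = 0.0074). The receptor gene *Egfr* was the member that rose, with 0.76 ± 0.19 (adjusted p = 0.037), and it was called in 1 of the 5 fits that left out an array.

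Of 27 tested immediate early genes, 9 fell and 0 rose, against 3.39% and 5.63% of all tested genes, with a median log2 difference of -0.44. *Egr3* had signals of 42.5, 63.6 and 26.8 at 24 h, against 579 and 229 at 12 h, and its log2 difference was -2.71 ± 0.38 (adjusted p = 0.0031). The AP-1 genes *Fosl1* and *Fos* fell with log2 differences of -1.88 ± 0.26 (adjusted p = 0.0027) and -1.53 ± 0.30 (adjusted p = 0.013), and *Ier5* with -1.54 ± 0.17 (adjusted p = 0.0011). Without 24 h replicate 1 the count was 5. Of 26 tested genes of epithelial migration and wound response, 8 fell and 0 rose, among them *Sprr1a*, a cornified envelope gene, with -2.37 ± 0.25 (adjusted p = 0.00073), the integrin gene *Itga3* with -1.07 ± 0.18 (adjusted p = 0.0079) and the urokinase receptor gene *Plaur* with -1.57 ± 0.29 (adjusted p = 0.01). That count was 5 without 24 h replicate 1 and 5 without 12 h replicate 2. Markers of the ovarian surface epithelium (19) summed to 8371 to 9898 at 24 h, against 9679 to 12443 at 12 h, and 4 of 17 tested members fell, among them *Krt8* with -0.90 ± 0.18 (adjusted p = 0.015) and *Lgr5* with -1.54 ± 0.34 (adjusted p = 0.023). The other members did not share this direction: 7 of the 17 had a value above 0, up to 1.54, and the median was -0.02. None of the 4 was called in all 5 fits that left out an array, and without 12 h replicate 2 the list had 4 members higher and 1 lower, with a median of 0.49. The part of that cell type in the falls above was not tested. Of 19 heat shock and chaperone genes 3 fell, *Hspa1a*, *Hspa1b* and *Hspa4l*, with log2 differences of -1.25 (*Hspa1a*) to -0.98 (*Hspa1b*), against 3.39% of all tested genes that fell. All 3 stayed called with any 1 array left out, but 0 of the list were called with 17 arrays, and *Hspa1b* had the opposite sign with all 6 arrays.

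**Figure D3:**
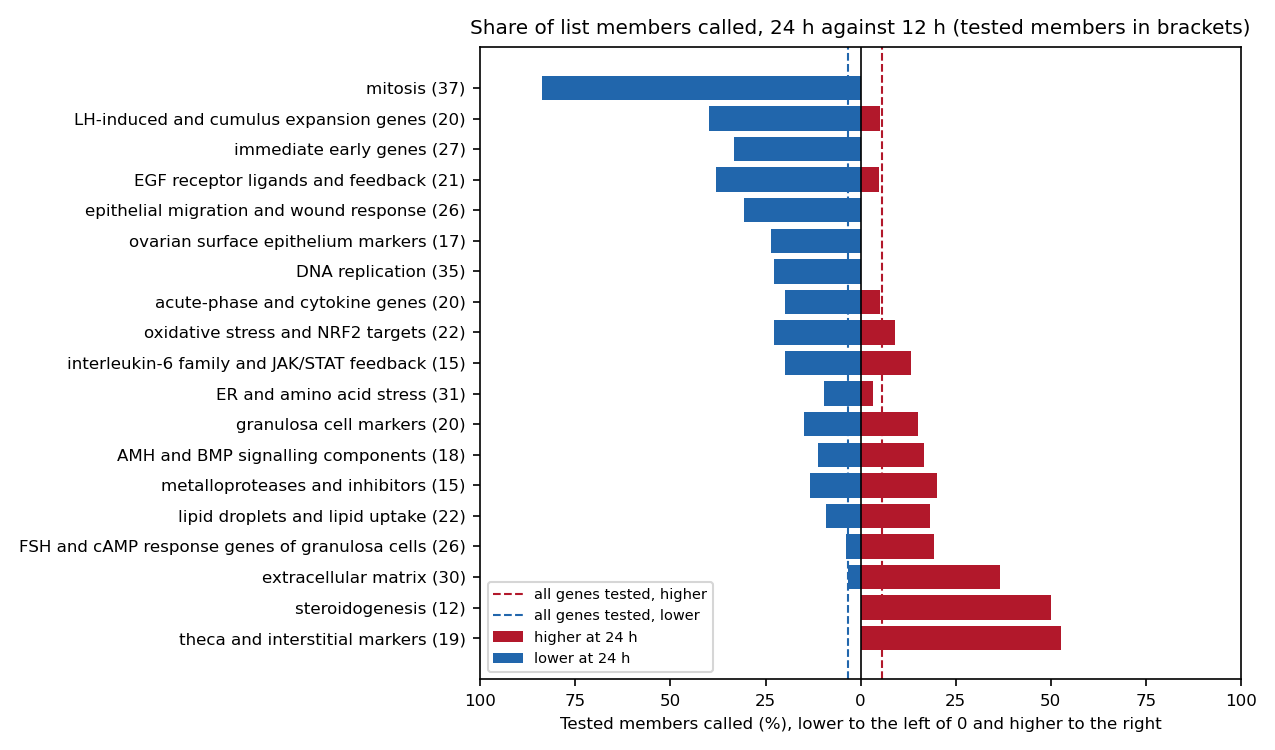
Share of the tested members of each gene list that were called lower (left) or higher (right) at 24 h, for lists with at least 4 called members, with the number tested in brackets and dashed lines at the shares of all tested genes (3.39% lower, 5.63% higher). Mitosis genes extend farthest to the left with 31 of 37, and theca and interstitial markers farthest to the right with 10 of 19.

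Steroidogenic genes were higher at 24 h. Of 12 tested genes 6 rose and 0 fell, against 5.63% of all tested genes that rose, and the median log2 difference was 0.69. *Cyp11a1*, the enzyme that makes pregnenolone from cholesterol, had signals of 3409, 2211 and 2547 at 24 h, against 854 and 705 at 12 h. *Cyp17a1*, which theca cells use to form androgens, had signals of 105, 50.7 and 114 at 24 h, against 5.74 and 21.6 at 12 h. Both were higher on every 24 h array than on either 12 h array. The log2 differences were 1.77 ± 0.22 (adjusted p = 0.0019) for *Cyp11a1* and 1.83 ± 0.34 (adjusted p = 0.011) for *Cyp17a1*. The HDL receptor gene *Scarb1* rose with 1.13 ± 0.23 (adjusted p = 0.017), the cholesterol carrier *Star* with 0.99 ± 0.24 (adjusted p = 0.033), *Hsd17b1* with 1.13 ± 0.24 (adjusted p = 0.018) and *Hsd17b7* with 0.81 ± 0.17 (adjusted p = 0.016). *Hsd3b1* had 0.51 ± 0.26 (adjusted p = 0.28) and was not called. The count was 2 without 24 h replicate 1 and 2 without 12 h replicate 2.

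The FSH receptor gene *Fshr*, which granulosa cells express, had signals of 101, 139 and 128 at 24 h, against 29.6 and 22.6 at 12 h, and its log2 difference was 1.72 ± 0.25 (adjusted p = 0.0033). Of 26 tested FSH and cyclic AMP response genes 5 rose and 1 fell, against 5.63% and 3.39% of all tested genes, with a median log2 difference of 0.33. *Cyp11a1*, *Scarb1* and *Hsd17b1*, which are among the 5, are also in the steroidogenesis list. The count of rises was 3 without 24 h replicate 1 and 2 without 12 h replicate 2. Of 20 tested granulosa cell markers 3 rose and 3 fell, with a median of 0.34. *Foxl2*, a granulosa cell identity factor, rose with 0.87 ± 0.20 (adjusted p = 0.028). Among the members that fell were the cadherin gene *Cdh2* with -0.71 ± 0.16 (adjusted p = 0.027) and *Amh*, described below with its pathway. *Inha*, an inhibin subunit gene, had 0.53 ± 0.23 (adjusted p = 0.2) and was not called.

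Theca, interstitial and matrix genes were also higher. Of 19 tested theca and interstitial markers 10 rose and 0 fell, with a median log2 difference of 0.99. Among 30 tested matrix genes 11 rose and 1 fell, with a median of 0.74, against 5.63% and 3.39% of all tested genes. These lists share members, since *Col1a1*, *Col1a2* and *Dcn* are in both. *Cyp11a1*, *Cyp17a1* and *Star* are in the theca list as well as in the steroidogenesis list. *Col1a1*, a chain of type I collagen, had signals of 939, 609 and 961 at 24 h, against 273 and 265 at 12 h. *Dcn*, the proteoglycan decorin, had signals of 1155, 878 and 1731 at 24 h, against 317 and 383 at 12 h. *Pdgfra*, a receptor of stromal and theca cells, had signals of 929, 354 and 649 at 24 h, against 151 and 166 at 12 h. For these 3 genes the times did not overlap, and 24 h replicate 2 was the lowest of the 24 h arrays. The log2 differences were 1.55 ± 0.21 (adjusted p = 0.0024) for *Col1a1*, 1.75 ± 0.25 (adjusted p = 0.0034) for *Dcn* and 1.82 ± 0.32 (adjusted p = 0.0081) for *Pdgfra*. *Col15a1* rose with 2.11 ± 0.31 (adjusted p = 0.0038), *Thbs2* with 1.71 ± 0.27 (adjusted p = 0.005), and the WNT inhibitor genes *Sfrp1* and *Sfrp4* with 1.53 ± 0.28 (adjusted p = 0.0093) and 2.14 ± 0.37 (adjusted p = 0.0083). The ligand gene *Wnt5a* rose with 1.36 ± 0.19 (adjusted p = 0.0029), the gelatinase gene *Mmp2* with 1.05 ± 0.16 (adjusted p = 0.0039) and *Timp2* with 1.25 ± 0.21 (adjusted p = 0.0074). *Mmp2* and *Timp2* are from the list of metalloproteases and inhibitors. In that list 9 of 15 tested members had a value below 0, and the median was -0.27. The theca count was 5 without 24 h replicate 1. With 1 spread shared over 17 arrays of all doses and times, 3 theca and 2 matrix genes were called higher, 3 steroidogenesis genes higher, and 7 mitosis, 5 LH-induced, 5 EGF pathway and 6 immediate early genes lower. With the pool as a random block in that fit (estimated correlation 0.28), 1 theca, 0 matrix and 2 steroidogenesis genes were called higher, and 5 mitosis, 4 LH-induced, 7 EGF pathway and 5 immediate early genes lower. The count of matrix rises was thus 11 with 5 arrays, 2 with the spread shared over 17 arrays and 0 with the random block added. In bulk follicles more cells of a type and more RNA per cell cannot be told apart.

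The follicle markers were present: *Foxl2* of granulosa cells had signals of 654, 976 and 997 at 24 h, against 484 and 446 at 12 h, and the oocyte gene *Zp3* had 88.8, 675 and 52.8 at 24 h, against 361 and 1119 at 12 h. Granulosa cell markers (21) summed to 13942 to 18222 at 24 h, against 12508 to 14348 at 12 h. The summed signal of all 21 theca and interstitial markers named on the array was 16050 to 26760 at 24 h, against 10419 to 11289 at 12 h. Smooth muscle and pericyte markers (16) summed to 2959 to 6249 at 24 h, against 2206 to 2933 at 12 h, and all 12 tested members had a log2 difference above 0. None was called by limma after adjustment, and 4 had an unadjusted p under 0.05. Endothelial markers (22) summed to 3309 to 5054 at 24 h, against 2828 to 3320 at 12 h. Leukocyte markers (26) summed to 1268 to 2969 at 24 h, against 1964 to 2502 at 12 h, and *Ptprc*, which defines leukocytes, was under 16 on all 5 arrays. *Csf1r*, a receptor of macrophages, was the 1 called member of 14 tested leukocyte markers, with -2.39 ± 0.26 (adjusted p = 0.0011). Of the 14, 7 had a value above 0 and 7 below, the median was 0.06, and *Cd52* had 1.44 ± 0.46 (adjusted p = 0.087). Oocyte markers (28) summed to 2479 to 8040 at 24 h, against 4356 to 11710 at 12 h, so the times overlapped. The part of these cell types in the gene changes was not tested.

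The AMH signalling genes *Amhr2*, *Bmpr1a*, *Smad1* and *Smad5* were not called, whereas some other members of the AMH and BMP signalling list were. *Amhr2*, the AMH receptor, had signals of 1257, 1190.5 and 1372 at 24 h, against 767 and 1322 at 12 h and a log2 difference of 0.33 ± 0.23 (adjusted p = 0.43). *Bmpr1a* had 0.09 ± 0.17 (adjusted p = 0.81), *Smad1* -0.11 ± 0.15 (adjusted p = 0.72) and *Smad5* -0.01 ± 0.16 (adjusted p = 0.98), and none of these was called. Of 14 tested SMAD1/5/9 target genes 0 passed the adjusted threshold in limma, against 9.02% of all tested genes. At an unadjusted p under 0.05, 1 member was higher and 2 were lower. The higher member was *Id2*, with 0.93 ± 0.25 (limma, adjusted p = 0.0501), just over the threshold. For *Id2* the log2 difference was 0.96 with vehicle and 1.03 at 200 ng/mL. *Id1* had -0.23 ± 0.16 (adjusted p = 0.46) and *Id3* 0.16 ± 0.21 (adjusted p = 0.71). Of 18 tested AMH and BMP signalling components 3 rose and 2 fell, against 5.63% of all tested genes that rose and 3.39% that fell. *Tgfbr3*, the co-receptor betaglycan, rose with 1.81 ± 0.26 (adjusted p = 0.0036) and *Bmpr1b*, a type I receptor, with 1.24 ± 0.24 (adjusted p = 0.014) and the type II receptor *Bmpr2* with 0.80 ± 0.18 (adjusted p = 0.025), whereas the ligand gene *Bmp6* fell with -1.62 ± 0.25 (adjusted p = 0.0046). *Amh* had signals of 35.1, 11 and 10.3 at 24 h, against 50.7 and 214 at 12 h. It fell with a log2 difference of -1.90 ± 0.47 (adjusted p = 0.036), a call made in 1 of the 5 fits that left out an array.

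The other doses show what the same 12 h interval looked like without AMH and with more of it. Each dose was cultured from the same pools, so the comparisons share their follicles and are given side by side. The log2 difference of *Plin5* was 3.24 with vehicle, 3.80 at AMH 50 ng/mL and 3.41 at 200 ng/mL. For *Cdc20* it was -1.38 with vehicle, -1.96 at AMH 50 ng/mL and -1.42 at 200 ng/mL, and for *Btc* -2.17 with vehicle, -2.36 at 50 ng/mL and -2.79 at 200 ng/mL. The median over mitosis genes was -0.89 with vehicle, -1.47 at AMH 50 ng/mL and -0.79 at 200 ng/mL. The median over theca and interstitial markers was 0.19 with vehicle, 0.99 at AMH 50 ng/mL and -0.01 at 200 ng/mL. That over matrix genes was -0.11 with vehicle, 0.74 at 50 ng/mL and -0.12 at 200 ng/mL.

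These side-by-side values rest on different pools at 12 h, because the array left out at AMH 50 ng/mL has counterparts from the same pool at the other doses. Those counterparts stood apart: the vehicle array of 12 h replicate 3 had the highest summed theca signal of the 3 vehicle arrays at 12 h (23753, against 13533 and 10106) and the lowest mitosis signal (7122, against 10077 and 14806). The AMH 200 ng/mL array of that pool had a mitosis signal of 4019, against 11547 and 13982. Leaving the replicate 3 arrays out at 12 h for every dose, a step chosen after these values were seen, gave mitosis medians of -1.19 with vehicle, -1.47 at 50 ng/mL and -1.34 at 200 ng/mL. For *Cdc20* the log2 difference was then -1.57 with vehicle and -2.02 at 200 ng/mL. The matrix medians were then 0.24 with vehicle, so that the sign turned, 0.74 at 50 ng/mL and -0.04 at 200 ng/mL. The theca medians were then 0.50 with vehicle, 0.99 at 50 ng/mL and 0.07 at 200 ng/mL, and *Cyp17a1* had log2 differences of 1.75 with vehicle, 1.83 at 50 ng/mL and 0.28 at 200 ng/mL.

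**Figure D4:**
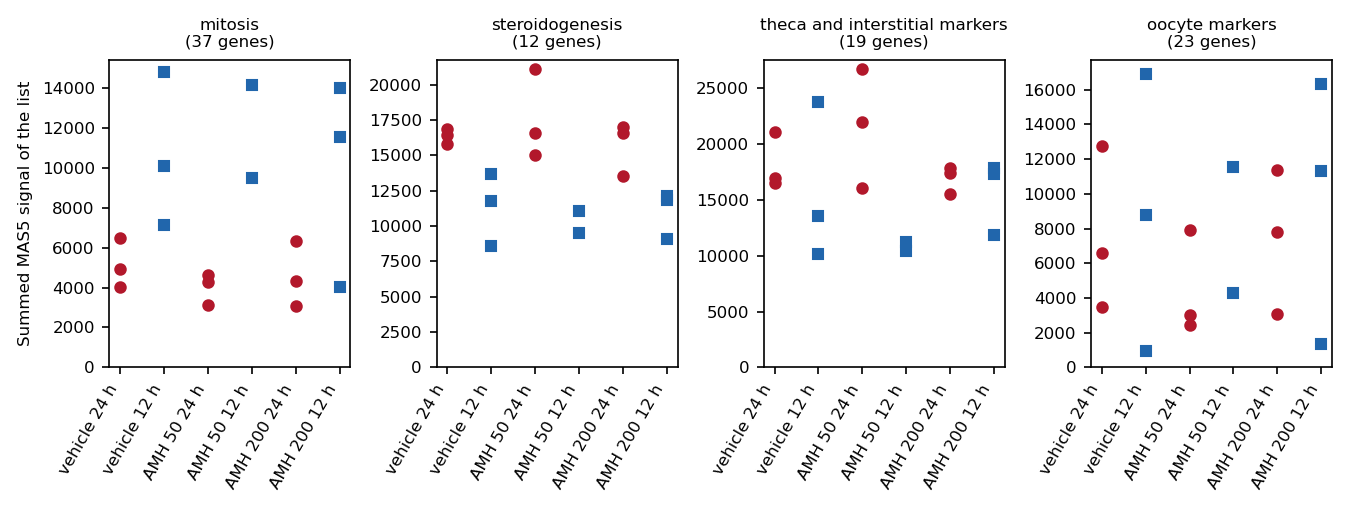
Summed MAS5 signal of the tested members of 4 gene lists on each of 17 arrays, with circles for 24 h left of squares for 12 h at vehicle, AMH 50 and AMH 200 ng/mL. Mitosis sums at AMH 50 ng/mL lie at 3143 to 4617 at 24 h and at 9473 to 14121 at 12 h, and 1 vehicle array of 12 h has a theca sum of 23753.

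Whether the change between times differed by dose was tested in 1 limma model over 17 arrays with the pool as a block. For 50 ng/mL against vehicle, 0 of 22518 probe sets (0%) passed the adjusted threshold, 729 had an unadjusted p under 0.05, where 5% of the probe sets would be 1125.9, and the smallest adjusted p was 0.999. For 50 against 200 ng/mL, 0 passed (0%), 803 had an unadjusted p under 0.05, and the smallest adjusted p was 0.992. The median SE of such a difference was 0.31 on the log2 scale, which limits the size of a dose difference that could be called. The theca and matrix rises above were therefore not shown to be particular to 50 ng/mL. By unadjusted p, the 10 genes that differed most from vehicle, 5 in each direction, were *Pofut2*, *Rabep2*, *Thbs4*, *Kcnk15* and *Clip3*, with differences of 0.73 (*Rabep2*) to 1.62 (*Kcnk15*), and *Cxcl1*, *Chmp4c*, *2210407C18Rik*, *Cftr* and *Hoxc4*, with -2.47 (*Cxcl1*) to -1.13 (*Hoxc4*). Those from 200 ng/mL were *Akr1c18*, *Creb3l1*, *Col6a2*, *Mapk13* and *Vgll3*, with 1.12 (*Creb3l1*) to 1.88 (*Vgll3*), and *Tmie*, *Krcc1*, *Tmtc2*, *Cyb561* and *Zfp106*, with -1.44 (*Tmie*) to -0.63 (*Krcc1*). None passed the adjusted threshold. Because the model compares doses within pools, its differences are not the subtraction of the separate values.

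**Figure D5:**
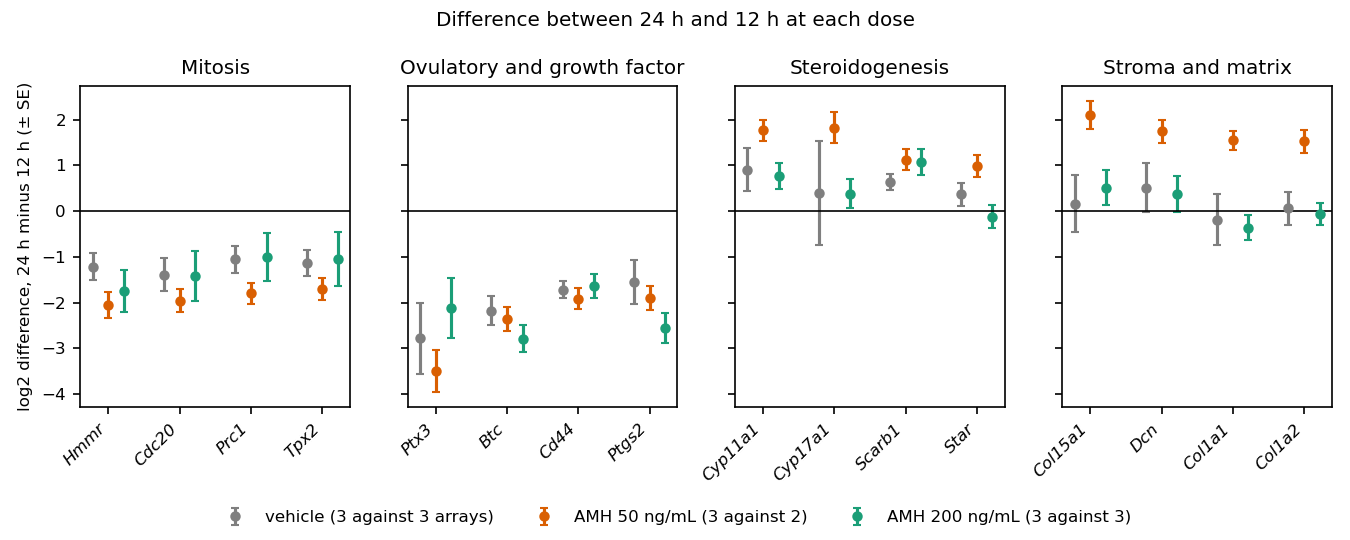
Log2 difference between 24 h and 12 h (± SE) for 16 genes at vehicle (grey, 3 against 3 arrays), AMH 50 ng/mL (orange, 3 against 2) and AMH 200 ng/mL (green, 3 against 3). Mitosis and ovulatory genes lie below 0 at every dose, and the 4 stroma and matrix genes lie at 1.53 to 2.11 at 50 ng/mL and at -0.36 to 0.52 at the other doses; with 12 h replicates 1 and 2 alone, which the plot does not show, they lie at 0.47 to 1.04 with vehicle and at -0.18 to 0.77 at 200 ng/mL. No dose difference passed the test.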

How the data were processed

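Follicle RNA was hybridised to Affymetrix Mouse Genome 430 2.0 arrays after amplification from 5 ng, per the labels' protocols. The authors deposited MAS5 signal intensity values per probe set, per the submitters' processing notes. The trimmed mean of every array was 150 when 2% of values at each end were left out. The files give no detection calls for use here, and the number of arrays limits the precision.

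Here, signals were taken to log2(signal + 16). Control probe sets and those with a mean under the 50th percentile were left out. The 24 h and 12 h arrays were compared with limma 3.58.1 (R 4.3.3; eBayes with trend) over 5 arrays with 3 residual degrees of freedom, and p-values were adjusted by Benjamini-Hochberg. Dose differences used 17 arrays with the pool as a block. The fit was tested on simulated data. Probe sets with 1 gene symbol (34945 of 45037) were named, and each gene was given by its brightest probe set. With 3 against 2 arrays an exact permutation test of 1 value cannot go below p = 0.1, so sums have no test. P-values of the time comparison measure the spread between pools, and those of the dose differences the spread within pools.

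A rule picked the genes for naming. It took the 15 largest rises and the 15 largest falls among called genes whose 24 h and 12 h arrays did not overlap. It also took the 4 members with the smallest p in each list and fixed AMH and follicle genes. From the dose differences it took the 5 genes with the smallest p in each direction. The text gives the rises, falls and dose genes in full and part of the others, with the counts of every list; a few further genes were named after their values were seen. The members and the 40 gene lists were chosen with earlier results of these data known. Alternatives covered the pseudocount, the filter, the normalization, the trend, array weights, the pool block and each array left out. Replicate numbers were not taken to pair the times.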

Additional observations from a re-analysis of the deposited data

Results flagged for a closer look

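On the 12 h AMH 50 ng/mL array of replicate 3, probe sets for spiked-in control RNA, which the comparison does not use, were brighter than elsewhere. The bacterial hybridisation controls averaged a signal of 28532 there, and 1441 to 3520 across the other 17 arrays. The poly-A spike controls averaged 13693 there, and the next highest array, AMH 200 ng/mL at 12 h replicate 3, had 4327. The first of these arrays was left out of the comparison and the second was kept at its own dose.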

How the results depend on the processing

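The counts of 1107 probe sets higher and 669 lower moved by less than 1.5 times with a pseudocount of 1 or 50, quantile normalization, median centring and no mean-variance trend. Without a filter on low values they were 480 higher and 285 lower, with more probe sets tested, and above the 75th percentile 645 and 351, with fewer tested. With 6 weighted arrays they were 2476 and 1448, with 6 unweighted arrays 0 and 0 (1325 at an unadjusted p under 0.05), with 17 arrays 374 and 228, and with the pool as a random block 386 and 254; the cause of these moves was not tested. Leaving out 1 array gave 600 to 1068 higher and 298 to 639 lower. The replicate number as a block gave 995 higher and 605 lower. That fit had only 1 residual degree of freedom, and 24 h replicate 3 had no 12 h array of its number in it. Its counts therefore say little about how stable the calls are. Arrays of the same number deviated from their group means with correlations of -0.05 and -0.05. With 2 arrays at 12 h these deviations mirror each other, so this check cannot decide whether the numbers pair the times. The comparison was run unpaired, as the 24 h and 12 h cultures came from different pools. The dose differences stayed at 0 called probe sets, except without the pool of 12 h replicate 2, where 3 differed from vehicle and 4 from AMH 200 ng/mL; leaving out 1 pool gave 0 to 3 and 0 to 4. With all 6 arrays, 14 of the 118 called genes that the naming rule picked had the opposite sign: *Col1a1* -0.0136, *Cdt1* 0.67, *Mcm6* 0.81, *Gadd45a* -0.10, *Hspa1b* 0.55, *Psat1* 0.22, *Ereg* 0.59, *Krt8* 0.22, *Ezr* 0.0764, *Psmb9* -0.47, *Spry2* 0.16, *Dusp4* 0.42, *Stc2* 0.44 and *Srxn1* 0.48; that fit adds the array that stood apart. Time and pool cannot be told apart, 12 h rests on 2 arrays, and genes near the pseudocount have understated differences.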

Other observations

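The genes of this and the next paragraph lie outside the lists and, except *Krt79*, *Aqp3* and *Foxq1* from the 15 largest falls, were picked after their values were seen. They stand for no group, and no set they belong to was counted or tested. *Krt79*, a keratin of hair follicle and gland ducts, had signals of 57.1, 94.4 and 42.3 at 24 h, against 1022 and 598 at 12 h, and the keratin gene *Krt76* had a log2 difference of -2.05 ± 0.22 (adjusted p = 0.00085). *Lor*, which codes for the cornified envelope protein loricrin, had -2.01 ± 0.35 (adjusted p = 0.0087) and *Krtdap*, a keratinocyte differentiation gene, -1.74 ± 0.25 (adjusted p = 0.0031). The water channel gene *Aqp3* fell with -2.40 ± 0.51 (adjusted p = 0.02) and the transcription factor gene *Foxq1* with -2.92 ± 0.30 (adjusted p = 0.00072). With vehicle, the separate time comparison gave -0.94 for *Foxq1*, and -1.96 without its 12 h replicate 3.

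*Tnfrsf23*, a TNF family decoy receptor gene, had signals of 153, 139 and 101 at 24 h, against 767 and 586 at 12 h, and the related gene *Tnfrsf22* had a log2 difference of -1.76 ± 0.17 (adjusted p = 0.00053). In the other direction, *Tnni3*, the troponin I gene of heart muscle, had signals of 1239, 1243 and 1589.8 at 24 h, against 342 and 336 at 12 h, and its log2 difference was 1.94 ± 0.17 (adjusted p = 0.0004), beside 2.66 with vehicle and 3.18 at AMH 200 ng/mL. *Mybpc3*, the cardiac myosin-binding protein C gene, had a log2 difference of 1.81 ± 0.37 (adjusted p = 0.016).

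Some lists held no called genes. Of 36 tested oxidative phosphorylation genes and 27 ribosomal protein genes, limma called 0 after adjustment, with 1 and 1 at an unadjusted p under 0.05. Of 23 tested oocyte genes limma called 0 after adjustment, with 1 higher and 5 lower at an unadjusted p under 0.05; their median log2 difference of -0.74 went with summed signals that differed between pools, 3042, 7904 and 2428 at 24 h against 4274 and 11567 at 12 h. Without 24 h replicate 2, 10 of them were called lower. By contrast, of 22 tested oxidative stress and NRF2 target genes 5 fell and 2 rose, against 3.39% and 5.63% of all tested genes. *Nqo1* was among those that fell, with -1.45 ± 0.25 (limma, adjusted p = 0.0074). The count of falls was 2 without 24 h replicate 1.

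The lists not counted above had the following calls, against 5.63% of all tested genes that rose and 3.39% that fell. Of 20 tested genes of cholesterol biosynthesis 2 rose and 0 fell, among them *Tm7sf2* with 1.13 ± 0.16 (adjusted p = 0.0031). Of 25 p53 and apoptosis genes 1 rose and 2 fell. Of 31 genes of ER and amino acid stress 1 rose and 3 fell; the serine synthesis gene *Psat1* had -1.24 ± 0.16 (adjusted p = 0.0022). Of 32 hypoxia and glycolysis genes 1 rose and 0 fell, of 23 interferon response genes 2 rose and 0 fell, and of 15 metalloproteases and inhibitors 3 rose and 2 fell. Of 20 acute-phase and cytokine genes 1 rose and 4 fell, and of 15 genes of the interleukin-6 family and its feedback 2 rose and 3 fell; the cytokine gene *Il11*, a member of both lists, had -2.19 ± 0.38 (adjusted p = 0.0076). Of 22 YAP and TEAD targets 1 rose and 1 fell, of 15 IGF system genes 1 and 1, of 14 Notch genes 0 and 1, of 9 Hedgehog genes 1 and 0, of 19 WNT genes 3 and 0, and of 19 endothelial markers 1 and 0. Of 24 ribosome biogenesis genes limma called 0 after adjustment, with 0 higher and 5 lower at an unadjusted p under 0.05, and 0 of the red blood cell markers passed the filter on low values.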
